A study of Saccharomyces cerevisiae with 24 samples.

Results

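Transcript levels of a yeast strain that cannot make phosphatidylethanolamine in its mitochondria were compared between cultures given ethanolamine and cultures given choline. The comparison takes 6 of the 24 RNA-seq libraries of the series, 3 with ethanolamine (LGE) and 3 with choline (LGC), chosen by strain and supplement in the labels and not by any measured value. It covers the 6570 genes listed in both deposited tables that hold these libraries, of 6814 genes joined over all tables.

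Phosphatidylcholine (PC) and phosphatidylethanolamine (PE) are abundant phospholipids of yeast membranes. Yeast makes PE by decarboxylating phosphatidylserine with the mitochondrial enzyme Psd1 or with Psd2, and then methylates PE to PC with Cho2 and Opi3. The Kennedy pathway works beside that route: ethanolamine taken up from the medium is built into PE, which can go on to PC, whereas choline is built into PC and cannot be turned back into PE. The molecules are close relatives, since choline is ethanolamine whose nitrogen carries methyl groups in place of its hydrogens.

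The strains were Saccharomyces cerevisiae of the GA74-1A background without the chromosomal PSD1 and PSD2 genes. The mutant, LGS/AAA, carries a Psd1 whose LGS motif was changed to AAA, which blocks the self-cleavage that matures the enzyme. The control strain (WT), used here only to set the supplement difference beside it, carries a working Psd1 with a 3XFLAG tag in the same deletion background. Cultures were grown with shaking in YPD, a rich medium, with 2 mM ethanolamine (LGE, WTE), with 2 mM choline (LGC, WTC) or with neither (LGD, WTD), to an OD600 of 0.5 to 0.7, with 3 libraries in each group. The labels do not say whether the libraries of a group came from separate cultures, so the p-values measure the spread between these libraries, which may be partly technical. PSD1 itself was read at 518, 529 and 365 CPM (the read count scaled to the size of its library) in LGE and at 469, 453 and 859 CPM in LGC, which shows the gene present but does not distinguish the AAA allele from a working one. PSD2 was not analysed here.

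Total counts ran from 17606509 to 20776303 over the 6 libraries, so depth differed little between the groups. Replicates 1 and 2 of a group lay much closer to each other than to replicate 3. Across genes, log2 CPM of LGE replicates 1 and 2 correlated at 0.994, and either of them with replicate 3 at 0.946. In LGC the same values were 0.995 for replicates 1 and 2 and 0.967 with replicate 3. The counts of replicates 1 and 2 still differed by more than counting noise, with a chi-square per gene of 3.88 in LGE and 3.77 in LGC. Against replicate 3 it was 257 and 267 in LGE and 209 and 221 in LGC. Replicates 1 and 2 were kept as separate libraries, though an excess over counting noise does not show that they came from separate cultures. Replicate 3 moved in opposite directions in the 2 groups for some functions. The mean level of 17 glycogen and trehalose genes, on the log2(CPM + 1) scale relative to the LGD mean, was 1.24, 1.25 and -0.74 in LGE and 0.27, 0.25 and 1.54 in LGC. The same measure for 40 ribosome biogenesis genes was -0.65, -0.66 and 0.42 in LGE and -0.10, -0.11 and -1.29 in LGC. Results below are therefore given per library.

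With ethanolamine rather than choline, the mutant had less mRNA for chaperones of the endoplasmic reticulum (ER), for the glycosylphosphatidylinositol (GPI) anchor enzyme Mcd4, for the autophagy scaffold Atg17 and for 3 retrotransposon genes. It had more mRNA for the cell wall mannoproteins Tir1, Tir3 and Tir4 and for the arginine enzyme Arg1. Of 6208 genes tested with edgeR's quasi-likelihood F test and Benjamini-Hochberg adjustment, 22 passed an adjusted p of 0.05, which is 0.354% of the genes tested. Of these, 5 were higher with ethanolamine (0.0805%) and 17 were lower (0.274%), and 21 differed by at least 2-fold. At an unadjusted p under 0.05 the count was 784. The libraries of the groups did not overlap for any of the 22 genes, a separation that 1451 of all tested genes (23.4%) showed, 668 with LGE higher (10.8%) and 783 with LGE lower (12.6%). The median log2 difference over all genes was 0.01. Every one of the 22 kept its direction in 16 of 16 other ways of fitting the data. Since their groups did not overlap, refits of the same libraries could hardly change a direction, so this is no separate support. The calls themselves depended on single libraries: with LGE replicate 1, LGE replicate 2 or LGC replicate 2 left out 0 genes passed (525, 529 and 475 at an unadjusted p under 0.05), and without LGC replicate 1 there was 1, which is not among the 22. Without LGE replicate 3 there were 90, without LGC replicate 3 there were 14, and with both libraries numbered 3 left out 3617, including all 22. When the near-alike replicates 1 and 2 of each group were summed into 1 library, 0 genes passed (206 at an unadjusted p under 0.05) and the edgeR adjusted p was 0.9 for all 22.

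**Figure D1:**
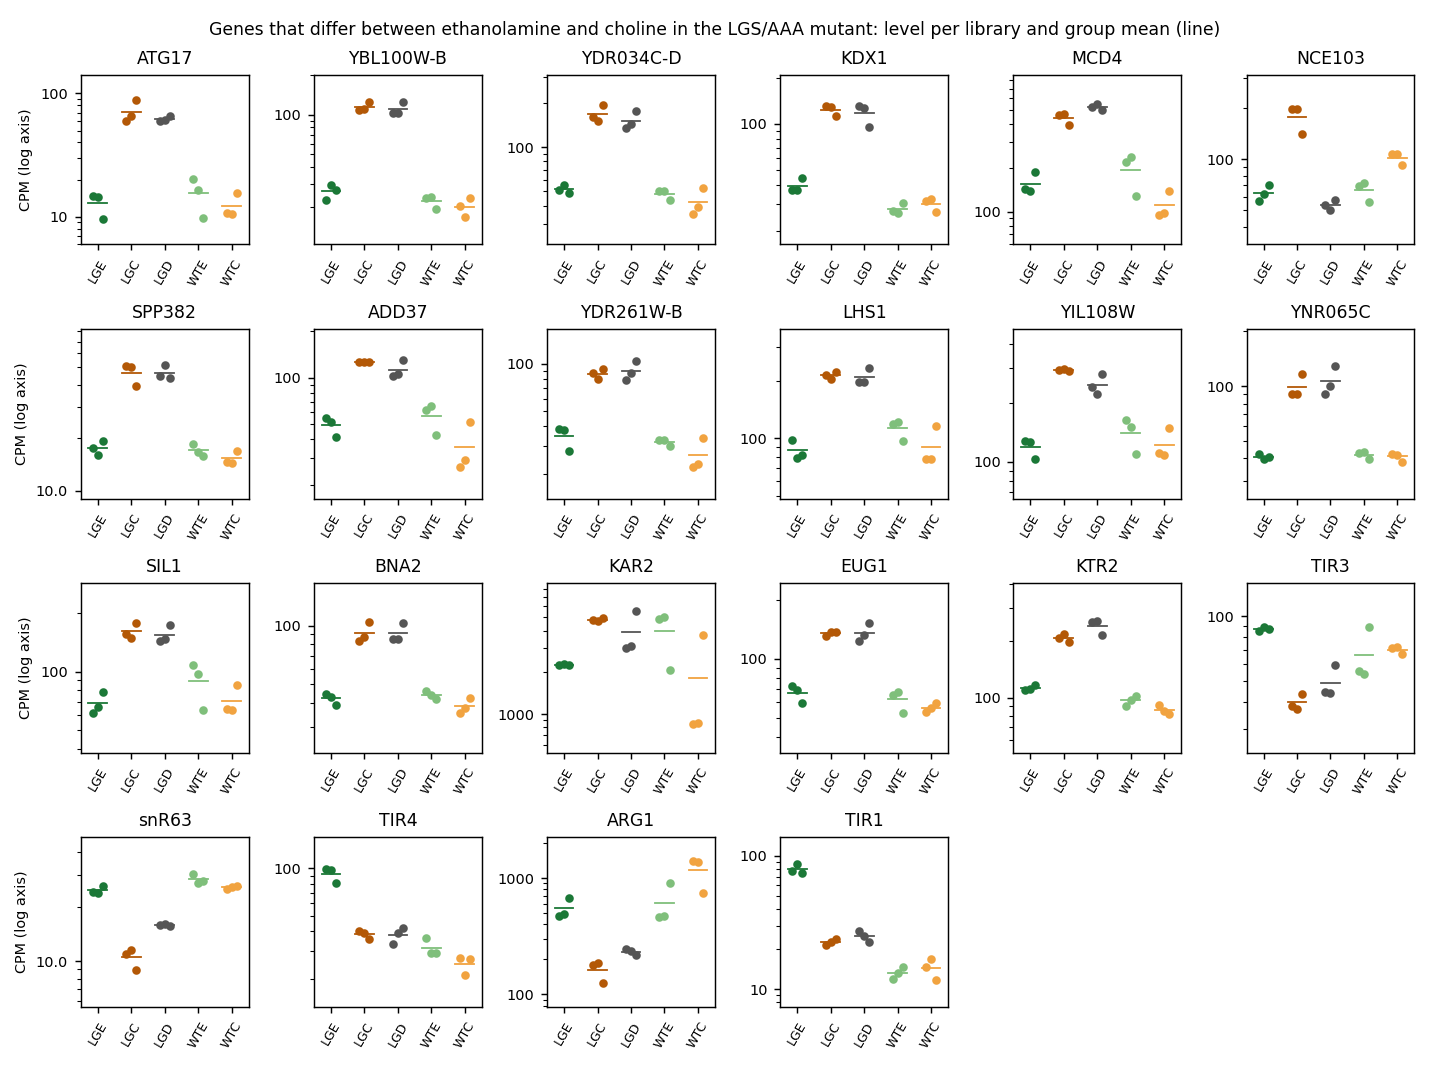
CPM on a log axis in each library (points) with the group mean (line) for the 22 genes that passed, in the mutant with ethanolamine (LGE), with choline (LGC) and without supplement (LGD) and in the control strain with ethanolamine (WTE) and choline (WTC), 3 libraries each. In every panel the LGE and LGC points are separate, and for genes such as ATG17 and YNR065C the LGE points lie near those of both control groups.

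The gene list with most called members was that of the ER folding machinery. Kar2, known in animals as BiP, is the main Hsp70 chaperone of the ER lumen. Its mRNA was at 2241, 2282 and 2246 CPM in LGE and at 4765, 4684 and 4930 CPM in LGC. All ethanolamine libraries were thus below all choline libraries, and replicate 3 stood with its group in both cases. The log2 difference was -1.09 ± 0.129 (SE; edgeR, adjusted p = 0.0384). The nucleotide exchange factors that recharge Kar2 differed the same way. LHS1 was at 98.0, 79.3 and 82.1 CPM in LGE against 215, 205 and 223 CPM in LGC, a log2 difference of -1.31 ± 0.132 (edgeR, adjusted p = 0.0291). SIL1 was at 61.5, 66.0 and 78.7 CPM against 155, 148 and 177 CPM, a log2 difference of -1.22 ± 0.151 (edgeR, adjusted p = 0.0391). The ranges of both genes were far apart between the groups. EUG1, which codes for a relative of protein disulfide isomerase, was at 72.4, 69.7 and 59.4 CPM in LGE and at 130, 137 and 138 CPM in LGC, a log2 difference of -1.004 ± 0.127 (edgeR, adjusted p = 0.0391).

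Transcription of ER folding genes is governed in yeast by the unfolded protein response, in which the membrane sensor Ire1 splices the HAC1 mRNA and the Hac1 protein binds promoter elements called UPREs. Sites of that kind in the promoters of genes called lower are shown to place the measured difference beside the DNA upstream of it. They were searched on both strands in the 500 bases before each start codon as CAGCGTG (UPRE-1 core) or TACGTG (UPRE-2 core), which do not overlap each other. Capitals mark the match with its flanks in lower case, written 5′ to 3′ on the gene's strand, from the RefSeq R64 genome. Where the motif lies on the opposite strand its reverse complement is in capitals.
KAR2, chrX:381145-381195, plus strand, 160 to 154 bases before the start codon: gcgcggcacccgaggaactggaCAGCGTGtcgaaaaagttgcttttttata
LHS1, chrXI:296309-296359, plus strand, 99 to 93 bases before the start codon: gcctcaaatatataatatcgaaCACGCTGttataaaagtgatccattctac
SIL1, chrXV:267604-267653, minus strand, 102 to 97 bases before the start codon: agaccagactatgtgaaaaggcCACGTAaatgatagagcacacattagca
EUG1, chrIV:1478412-1478461, plus strand, 174 to 169 bases before the start codon: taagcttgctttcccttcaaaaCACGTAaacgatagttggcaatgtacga
MCD4, chrXI:140824-140873, minus strand, 160 to 155 bases before the start codon: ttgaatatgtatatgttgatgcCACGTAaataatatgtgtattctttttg
At least 1 of these cores was found upstream of 10 of the 22 listed ER genes and of 864 of 5742 tested protein-coding genes. The 5 genes shown are those with a core among 14 protein-coding genes called lower, and of 4 called higher TIR1 also had a UPRE-2 core. A match is a description of the letters and no evidence of binding, and no test was made of these shares.

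Across the list of 22 ER chaperone and unfolded protein response genes, 4 passed the test and all 4 were lower with ethanolamine. The median log2 difference of the list was -0.69, beside 0.01 over all genes tested. All LGE libraries were below all LGC libraries for 19 of the 22, and the opposite was seen for 0. Over all tested genes the shares were 12.6% and 10.8%. The list was chosen with earlier results of these data known, so it is not an independent set. ULI1, a gene named for its induction by the unfolded protein response, had the widest difference of the list, with 11.9, 9.40 and 9.56 CPM in LGE and 35.9, 32.7 and 83.4 CPM in LGC. Its groups were apart, but the choline libraries themselves ranged widely, and the log2 difference of -2.30 (95% interval -3.26 to -1.34) did not pass (edgeR, adjusted p = 0.0988). JEM1 and SCJ1, J-domain partners of Kar2, had log2 differences of -1.09 (-1.56 to -0.63) and -0.995 (-1.42 to -0.57), with edgeR adjusted p-values of 0.104 and 0.106. The isomerase MPD1 stood at -1.07 (-1.52 to -0.61), and the thiol oxidase gene ERO1 at -1.10 (-1.82 to -0.39). HAC1 was at 646, 682 and 692 CPM in LGE and 1005, 965 and 1293 CPM in LGC, a log2 difference of -0.69 (-1.08 to -0.31) that did not pass. Counts of the gene do not separate spliced from unspliced HAC1 mRNA. IRE1, which codes for the sensor, had a log2 difference of 0.00 with an interval of -0.34 to 0.34, which allows a difference of that size in either direction.

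The mean level of the ER list, on the log2(CPM + 1) scale relative to the LGD mean, was -0.61, -0.64 and -0.70 in LGE and 0.03, 0.02 and 0.21 in LGC. Replicate 3 thus lay with its group on this list. DESeq2's Wald test called 14 of the list lower, where it called 292 of 6567 genes in all. A fit of all 24 libraries called 13 of the list, and 315 of 6317 genes in all. It did not call KAR2 (edgeR, adjusted p = 0.369, over a range of 5.29e-24 to 0.9 for KAR2 in all alternatives). With replicates 1 and 2 summed 0 of the list passed. Leaving out LGE replicate 3 gave 6 ER genes lower, leaving out LGC replicate 3 gave 1, and with both left out 18 were lower and 1 higher, in a fit that called 3617 genes in all. Leaving out replicate 1 or 2 of either group gave 0, while the list's median stayed between -0.76 and -0.57 over the 6 fits that left out 1 library.

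**Figure D2:**
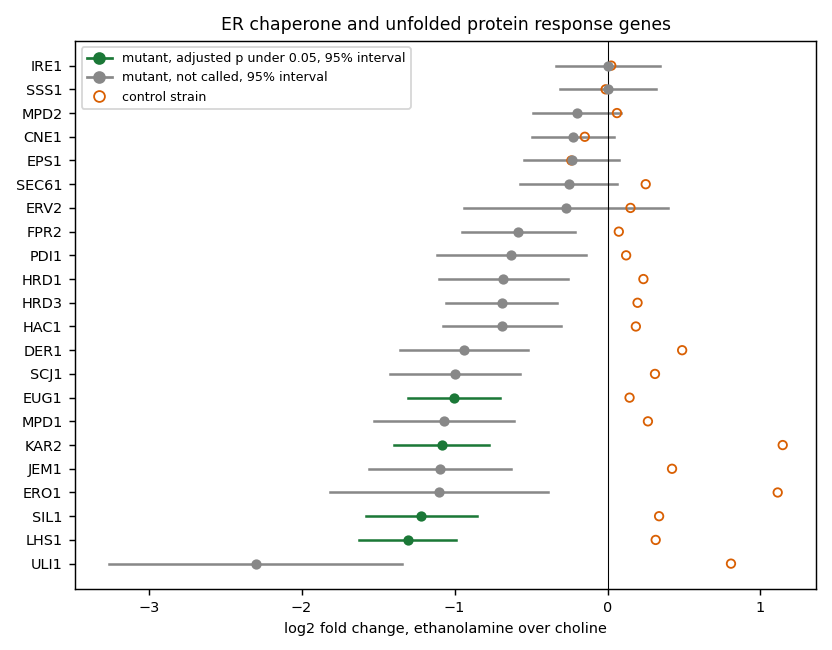
Log2 fold change of ethanolamine over choline for each of the 22 listed ER genes in the mutant (filled points with 95% intervals, green where the adjusted p is under 0.05) and in the control strain (open circles). Mutant values run from -2.30 for ULI1 to 0.00 for IRE1 and SSS1, and the control value of KAR2 is 1.15.

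GPI anchors, which are built in the ER and attach proteins to membranes, take their phosphoethanolamine groups from PE. MCD4 codes for the enzyme that moves the phosphoethanolamine head group of PE onto the first mannose of the GPI anchor. It was at 143, 138 and 186 CPM in LGE and at 460, 471 and 396 CPM in LGC, and its promoter sequence is printed above. The choline libraries were a little below the mutant without supplement at 525, 548 and 500 CPM, and the ethanolamine libraries far below it. The log2 difference was -1.50 ± 0.166 (edgeR, adjusted p = 0.0336). Of 24 tested GPI anchor genes only MCD4 passed, and the median log2 difference of the list was -0.11. No overlap was seen for 8 genes lower and 2 higher, beside 12.6% and 10.8% of all tested genes. GWT1, which acylates the inositol of the anchor, had a log2 difference of -0.65 (95% interval -0.96 to -0.33) and did not pass. KTR2, a mannosyltransferase gene of the Golgi that is on no list used here, was at 110, 111 and 117 CPM in LGE and 208, 217 and 198 CPM in LGC. The groups were well apart, and the log2 difference of -0.89 ± 0.110 passed (edgeR, adjusted p = 0.0391). It was the only one of the 22 that differed by less than 2-fold. ADD37, linked to degradation of misfolded ER proteins, was at 55.2, 51.5 and 41.4 CPM in LGE and 126, 127 and 127 CPM in LGC. Its choline libraries were nearly equal, and the log2 difference was -1.36 ± 0.142 (edgeR, adjusted p = 0.0291).

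TIR1, TIR3 and TIR4 code for serine-rich mannoproteins of the wall, which are known for expression in cold or oxygen-poor cultures. TIR1 was at 76.8, 86.7 and 74.1 CPM in LGE and at 21.6, 22.6 and 23.7 CPM in LGC. The choline libraries overlapped those of the unsupplemented mutant at 27.3, 25.2 and 22.7 CPM, with replicates 1 and 2 below all of these. TIR1 had the smallest p-value of the comparison, with a log2 difference of 1.81 ± 0.128 (edgeR, adjusted p = 0.0133). TIR4 was at 99.1, 97.6 and 80.6 CPM against 39.9, 39.2 and 35.6 CPM, a log2 difference of 1.28 ± 0.133 (edgeR, adjusted p = 0.0291). TIR3 was at 85.9, 89.2 and 87.0 CPM against 38.6, 37.2 and 43.8 CPM, a log2 difference of 1.13 ± 0.123 (edgeR, adjusted p = 0.0327). For both genes the ethanolamine libraries were the high ones and the groups did not overlap. The TIR genes resemble one another in sequence, and how the authors' counting treated reads shared between them is not given in the sources used here.

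These 3 were the called genes among the 14 of the DAN and TIR list, whose median log2 difference was 0.31. Of the 14, 9 had log2 differences above 0 and 5 below. No overlap was seen for 5 with LGE higher and 2 with LGE lower, beside 10.8% and 12.6% of all tested genes. Another hypoxic mannoprotein gene, DAN1, was at 57.9, 52.6 and 49.6 CPM in LGE and 14.5, 16.9 and 8.05 CPM in LGC, and missed the threshold with a log2 difference of 2.03 (95% interval 1.37 to 2.69; edgeR, adjusted p = 0.0520). DAN4 lay the other way at -0.87 (-1.49 to -0.25), and did not pass either. Outside the wall, the hypoxic ADP/ATP carrier gene AAC3 was at 32.6, 35.2 and 38.8 CPM in LGE and 16.9, 18.3 and 19.5 CPM in LGC, a log2 difference of 0.97 (0.62 to 1.31) that did not pass (edgeR, adjusted p = 0.0670). AAC3 had the smallest p of 14 listed aerobic-hypoxic isoform and heme genes, of which 0 passed. Their median log2 difference was 0.03, with 9 above 0 and 5 below. No overlap was seen for 2 with LGE higher and 2 with LGE lower. Anaerobic mannoprotein promoters are known to hold AR1 sites. The match upstream of TIR4, the called gene of the DAN and TIR list that holds it, is therefore shown with the motif in capitals. The letters searched were TCGTTNAG on both strands, with N for any base, from the RefSeq R64 genome.
TIR4, chrXV:344090-344141, plus strand, 223 to 216 bases before the start codon, motif on the opposite strand: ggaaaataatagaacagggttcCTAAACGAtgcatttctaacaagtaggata
The site was found upstream of 7 of 14 DAN and TIR genes and of 288 of 5742 tested genes (5.02%).

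KDX1, a kinase-like relative of the cell wall integrity kinase Slt2 and a textbook target of that pathway that is not on the list used here, was lower with ethanolamine. It was at 37.1, 37.0 and 44.4 CPM in LGE and at 130, 129 and 113 CPM in LGC. The unsupplemented mutant stood at 132, 127 and 95.4 CPM, on the side of choline. The log2 difference was -1.65 ± 0.136 (edgeR, adjusted p = 0.0200). Of 15 listed cell wall integrity genes, 0 passed with edgeR, and the median log2 difference was -0.47. At an unadjusted edgeR p under 0.05 there were 5, beside 784 of 6208 genes in all. DESeq2's Wald test called 4 of the list, beside 292 of 6567 genes in all. No overlap was seen for 8 with LGE lower and 0 with LGE higher, beside 12.6% and 10.8% of all tested genes. RLM1, the transcription factor of the pathway, was at 119, 113 and 97.4 CPM against 175, 181 and 176 CPM, with a log2 difference of -0.69 (95% interval -0.98 to -0.39; edgeR, adjusted p = 0.106). The glucan synthase gene GSC2 had -1.36 (-2.15 to -0.57) and the glucan-chitin linking enzyme gene CRH1 had -0.55 (-0.84 to -0.26), both short of the threshold. The list's level in LGE replicate 3 was -1.09 against -0.42 and -0.40 in replicates 1 and 2, so its size rests in part on that library.

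Amino acid biosynthesis genes mostly had log2 differences above 0, and a single member, ARG1, passed. ARG1, argininosuccinate synthetase of the arginine pathway, was at 475, 493 and 674 CPM in LGE and at 179, 184 and 125 CPM in LGC. The ethanolamine libraries were all above the choline ones, and the third library of each group lay farthest from the other group. The log2 difference was 1.75 ± 0.221 (edgeR, adjusted p = 0.0391). Of the 48 genes of the list, 46 had a log2 difference above 0, and the median was 0.41. No overlap was seen for 29 with LGE higher and 0 with LGE lower, beside 10.8% and 12.6% of all tested genes. ARG3, ornithine carbamoyltransferase, was at 153, 157 and 396 CPM against 60.2, 60.5 and 30.8 CPM, with a log2 difference of 2.23 and a wide interval of 1.11 to 3.35 (edgeR, adjusted p = 0.148). HIS4, ARG7 and ARG4 had log2 differences of 0.81 (0.44 to 1.19), 0.66 (0.33 to 0.98) and 0.58 (0.29 to 0.87), and none of the 3 passed. CAR2, an enzyme of arginine breakdown, lay the other way at -1.03 (-1.36 to -0.69) and missed the threshold narrowly (edgeR, adjusted p = 0.0520). CAR2 overlaps a gene on the opposite strand, and since strandedness is not given in the sources used here its counts are uncertain.

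Gcn4, the activator of amino acid biosynthesis genes in starved yeast, binds TGACTC. Both matches in the 500 bases before the ARG1 start codon are shown, as ARG1 is the called gene of the list, with the motif in capitals on the strand of the gene (RefSeq R64, plus strand).
ARG1, chrXV:218844-218893, 345 to 340 bases before the start codon: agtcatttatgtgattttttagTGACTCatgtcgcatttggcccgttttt
ARG1, chrXV:218915-218964, 274 to 269 bases before the start codon, motif on the opposite strand: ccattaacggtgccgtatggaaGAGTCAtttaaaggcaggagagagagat
The motif was found upstream of 36 of 48 listed genes (75.0%) and of 749 of 5742 tested genes (13.0%), searched on both strands. On the scale of list levels relative to the LGD mean, the 48 genes stood at 0.19, 0.19 and 0.40 in LGE and at -0.07, -0.07 and -0.51 in LGC. The groups did not overlap, and the libraries numbered 3 were farther apart than the others. With both libraries numbered 3 left out the list had 29 genes higher and 6 lower and a median of 0.23. That fit called 3617 of 6212 genes in all, 1773 higher and 1844 lower. With LGC replicate 3 alone left out the list had 0 genes called and a median of 0.29.

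**Figure D3:**
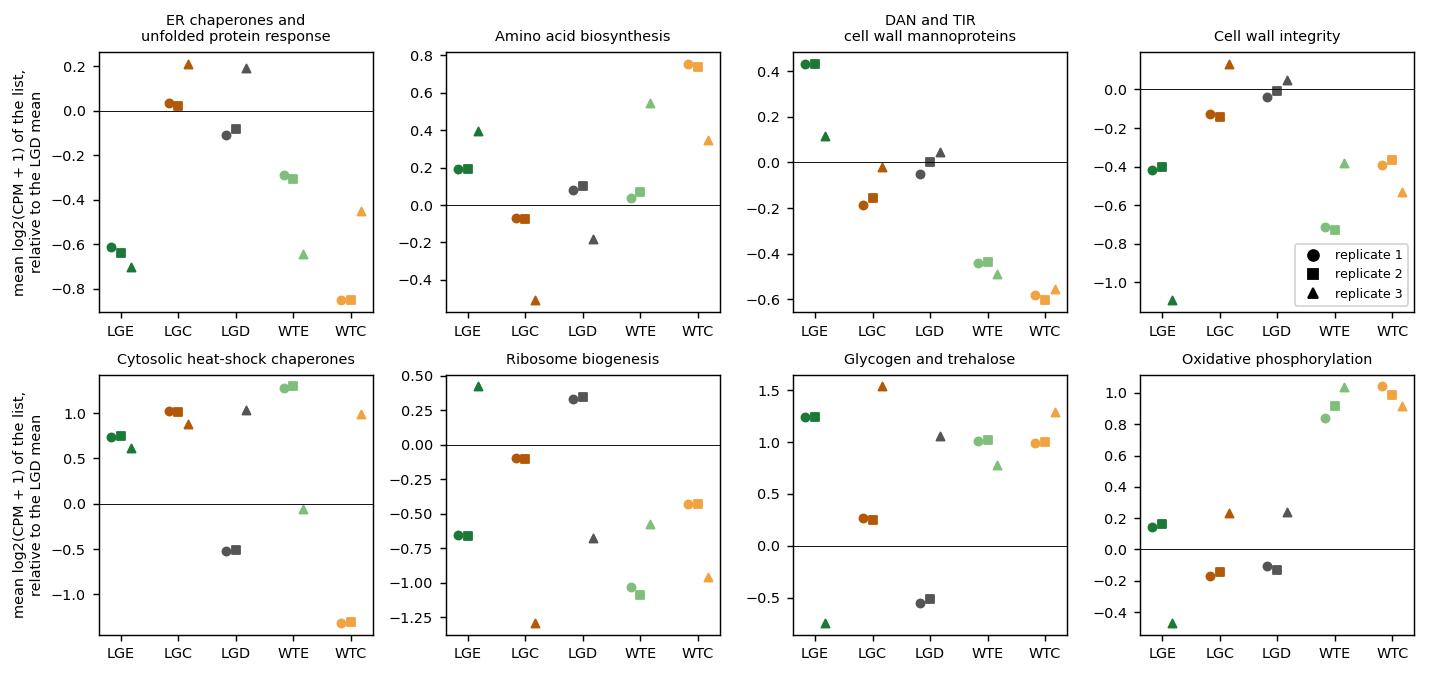
Mean log2(CPM + 1) of the members of 8 gene lists relative to the LGD mean, 1 point per library, with the replicate number given by the symbol, for the mutant (LGE, LGC, LGD) and the control strain (WTE, WTC). The ER list separates LGE from LGC in every library, while in the glycogen and trehalose list the libraries numbered 3 change the order of the groups.

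The genes that carry ethanolamine and choline into phospholipids showed no called difference. HNM1, which codes for the transporter of both molecules, was at 133, 138 and 209 CPM in LGE and 137, 139 and 104 CPM in LGC. Replicates 1 and 2 were nearly the same in the 2 groups, and the log2 difference was 0.34 (95% interval -0.19 to 0.87). On the ethanolamine branch, the kinase gene EKI1 had a log2 difference of 0.09 (-0.45 to 0.63), the gene of the next step, ECT1, -0.05 (-0.40 to 0.30) and the last enzyme's gene EPT1 -0.32 (-0.64 to -0.01). On the choline branch, CKI1 had -0.62 (-1.33 to 0.08), PCT1 -0.12 (-0.53 to 0.29) and CPT1 0.05 (-0.21 to 0.30). The narrowest of these intervals, that of CPT1, leaves room for a difference of up to 0.30 on the log2 scale, and that of CKI1 for a fall of 1.33. Of the 7 Kennedy pathway genes 0 passed with edgeR (1 at an unadjusted p under 0.05, beside 784 of 6208 genes in all). With DESeq2's Wald test 0 of the 7 passed, and the median log2 difference was -0.05. A missed threshold does not show that the supplements acted alike on these genes.

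The route from CDP-diacylglycerol through phosphatidylserine and PE to PC gave 0 called genes of 7 tested with edgeR (0 at an unadjusted p under 0.05) and 0 with DESeq2's Wald test, with a median of -0.17. CHO1, phosphatidylserine synthase, had a log2 difference of 0.12 (-0.28 to 0.51), and CHO2, the first PE methyltransferase, had -0.17 (-0.47 to 0.14). OPI3, which completes the methylation, was at 242, 248 and 131 CPM in LGE and at 252, 248 and 490 CPM in LGC. Its groups overlapped, since replicates 1 and 2 of both groups were close and only the libraries numbered 3 lay apart, and the difference of -0.68 (-1.55 to 0.20) did not pass. PSD1 had -0.34 (-1.06 to 0.38), with its libraries numbered 3 likewise the farthest apart, and it overlaps a gene on the opposite strand.

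Among 11 genes of inositol and choline regulation and supply, 0 passed with edgeR, 3 had an unadjusted p under 0.05, and DESeq2's Wald test called 2. Over all tested genes 784 of 6208 had an unadjusted edgeR p under 0.05, and DESeq2's Wald test called 292 of 6567. For 4 of the 11, all LGE libraries were below all LGC libraries, as for 12.6% of all tested genes. INO1, inositol phosphate synthase, is the classical reporter of this system, repressed by Opi1 and activated by Ino2 and Ino4. It was at 29.9, 30.8 and 47.9 CPM in LGE and at 91.4, 91.5 and 158 CPM in LGC, beside 85.5, 87.9 and 136 CPM without supplement. All ethanolamine libraries were lower than all choline and all unsupplemented ones, and replicate 3 was the highest of its group in each. The log2 difference of -1.65 (95% interval -2.38 to -0.92) did not pass (edgeR, adjusted p = 0.116). GDE1, a glycerophosphocholine phosphodiesterase gene, was at 91.3, 88.2 and 55.3 CPM against 152, 157 and 191 CPM, with -1.09 (-1.62 to -0.56; edgeR, adjusted p = 0.148). INO2 had -0.60 (-1.07 to -0.13), INO4 -0.44 (-1.18 to 0.31) and OPI1 -0.06 (-0.70 to 0.59). The Ino2-Ino4 element holds CATGTG, and its matches before INO1 are shown in capitals, since INO1 had the largest difference of the 25 genes tested on the 3 lipid lists (RefSeq R64, minus strand, both strands searched).
INO1, chrX:136149-136198, 243 to 238 bases before the start codon: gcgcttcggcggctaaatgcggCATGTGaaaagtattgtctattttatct
INO1, chrX:136084-136133, 178 to 173 bases before the start codon, motif on the opposite strand: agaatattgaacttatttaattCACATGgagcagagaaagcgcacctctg
These letters were found upstream of 755 of 5742 tested genes (13.1%).

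**Figure D4:**
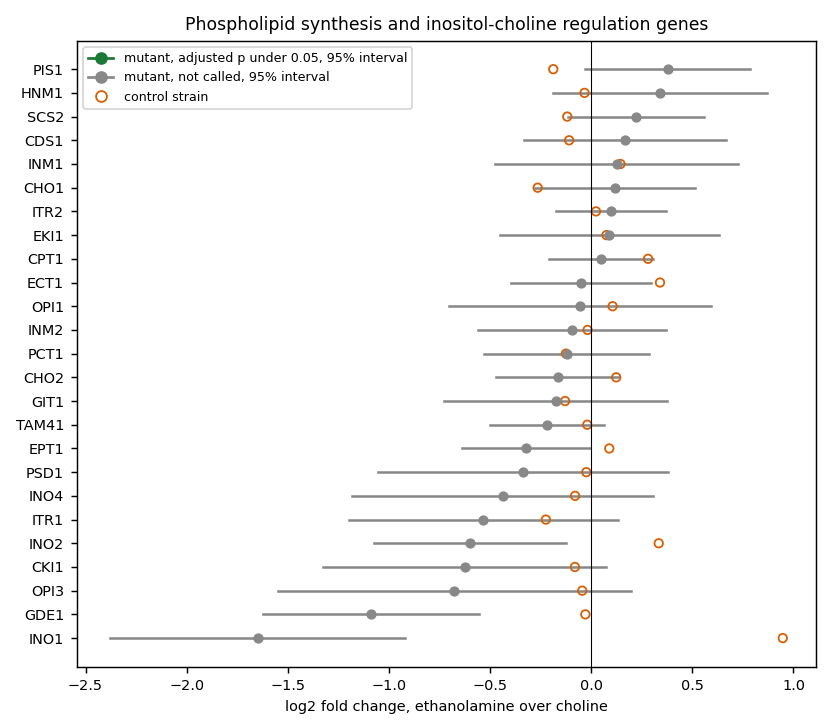
Log2 fold change of ethanolamine over choline with 95% intervals for the tested genes of the Kennedy pathway, the CDP-diacylglycerol route and inositol-choline regulation in the mutant (filled points) and in the control strain (open circles). No mutant value passed the test; INO1 at -1.65 and GDE1 at -1.09 are the lowest, and INO1 in the control strain is at 0.95.

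The other called genes belong to no listed pathway. ATG17, the scaffold protein gene of autophagy initiation, had the largest difference of the 22, with 14.8, 14.3 and 9.51 CPM in LGE and 59.7, 65.0 and 89.0 CPM in LGC. The groups did not come near each other, and the log2 difference was -2.47 ± 0.249 (edgeR, adjusted p = 0.0291). Its neighbour SPP382, a splicing factor gene read from the other strand, starts at chrXII:973395 where ATG17 spans chrXII:971917-973170, so they share the stretch between their starts. SPP382 was at 17.5, 16.0 and 19.1 CPM against 50.6, 50.2 and 39.1 CPM, a log2 difference of -1.41 ± 0.158 (edgeR, adjusted p = 0.0342). YIL108W was at 128, 126 and 104 CPM in LGE and 293, 298 and 291 CPM in LGC, a log2 difference of -1.30 ± 0.128 (edgeR, adjusted p = 0.0291). YNR065C was at 42.3, 39.7 and 40.5 CPM against 90.9, 89.9 and 117 CPM, a log2 difference of -1.28 ± 0.149 (edgeR, adjusted p = 0.0384). Both genes had tight ethanolamine or choline groups and no overlap. BNA2, tryptophan dioxygenase of NAD synthesis, was at 44.6, 42.9 and 38.9 CPM against 83.3, 87.4 and 104 CPM, a log2 difference of -1.12 ± 0.141 (edgeR, adjusted p = 0.0391). It overlaps YJR079W on the same strand, so its counts are uncertain. The small nucleolar RNA snR63 was at 24.1, 23.8 and 26.2 CPM in LGE and 11, 11.5 and 8.91 CPM in LGC, a log2 difference of 1.24 ± 0.163 (edgeR, adjusted p = 0.0473).

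Of 42 tested Ty retrotransposon genes, a group taken from the annotated gene type after the calls were seen, 3 were called lower and 0 higher, beside 0.274% of all tested genes called lower. The median log2 difference of the 42 was 0.04, and 8 had no overlap with LGE lower and 5 with LGE higher. Over all tested genes 12.6% had no overlap with LGE lower and 10.8% with LGE higher. YBL100W-B was at 22.6, 29.6 and 27.0 CPM in LGE and at 108, 110 and 125 CPM in LGC, with a log2 difference of -2.11 ± 0.154 (edgeR, adjusted p = 0.0133). YDR034C-D and YDR261W-B differed by -1.70 ± 0.148 and -1.32 ± 0.165 (edgeR, adjusted p = 0.0207 and 0.0391). None of the 3 had overlapping groups. Ty elements exist in near-identical copies whose reads can be split or dropped by the counting, so values of a single copy are uncertain.

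NCE103, carbonic anhydrase, differed from the other called genes in where the unsupplemented mutant stood. It was at 56.9, 62.1 and 70.8 CPM in LGE, 195, 196 and 141 CPM in LGC and 53.6, 50.4 and 57.5 CPM in LGD. Here choline was the condition that stood apart, above both others. The log2 difference of ethanolamine over choline was -1.48 ± 0.176 (edgeR, adjusted p = 0.0384). For the other 21 of the 22 genes the LGD mean was nearer to LGC than to LGE on the CPM scale. For KAR2 this rests on replicate 3, with LGD libraries at 3015, 3102 and 5516 CPM. The LGD libraries overlapped with none of the LGE libraries for 21 of 22 genes, and were apart from the LGC libraries for 6 of 22. On the log2 scale, LGE was nearer than LGC to the unsupplemented control strain WTD for 20 of 22, with TIR4 and NCE103 as exceptions. These counts describe genes that were picked for a difference between LGE and LGC, and they carry no test. The same counts were not made over all tested genes, so no share stands beside them.

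In the control strain, whose Psd1 works, 17 of 6162 tested genes (0.276%) passed between WTE and WTC. At that share, finding 0 of the mutant's 22 genes among them is no result about the 22. Of the 22, 18 had the opposite sign in the control strain, as did 3498 of 6131 genes tested in both strains (57.1%). The difference between the strains was tested itself, as the interaction of strain and supplement over 12 libraries. Of 6270 genes, 34 passed (0.542%), 27 with a more negative and 7 with a more positive ethanolamine-over-choline difference in the mutant. Of the mutant's 22 genes, 18 were among the 34. The interaction holds the same LGE and LGC libraries that picked the 22, so this count is no separate support. For MCD4, which was at 219, 236 and 129 CPM in WTE and 95.1, 97.8 and 139 CPM in WTC, the interaction was -2.29 (edgeR, adjusted p = 0.00868). Its control libraries did not hold together: replicates 1 and 2 differed between the supplements and the replicates numbered 3 were alike.

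ARG1 had an interaction of the opposite sign, 2.72 (edgeR, adjusted p = 0.0226), with 461, 473 and 899 CPM in WTE and 1409, 1378 and 737 CPM in WTC. Its control libraries did not hold together either, since the replicates numbered 3 were reversed relative to the others. For TIR1, at 11.8, 13.3 and 14.7 CPM in WTE and 14.7, 16.9 and 11.8 CPM in WTC, the control groups overlapped and lay below every LGE, LGC and LGD library, and the interaction was 1.96 (edgeR, adjusted p = 0.00496). INO1, which did not pass in the mutant alone, was at 41.3, 40.3 and 22.9 CPM in WTE and 15.9, 13.8 and 24.5 CPM in WTC, and its interaction of -2.56 passed (edgeR, adjusted p = 0.0220). In its control replicates numbered 3 WTE was slightly below WTC, unlike in the others.

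The 4 of the 22 that did not pass the interaction were TIR3, TIR4, NCE103 and KAR2. KAR2 was at 4862, 5044 and 2076 CPM in WTE and at 841, 856 and 3737 CPM in WTC, so its replicates numbered 3 were reversed relative to the others. Its interaction of -2.20 had an adjusted p of 0.200 (edgeR). Those of LHS1, SIL1 and EUG1, at -1.59, -1.52 and -1.11, passed (edgeR, adjusted p = 0.00964, 0.0220 and 0.0110). Their control replicates numbered 3 were reversed too. LHS1 was at 119, 122 and 96.5 CPM in WTE and 77.6, 77.8 and 116 CPM in WTC. SIL1 was at 108, 97.1 and 63.9 CPM against 64.4, 63.9 and 84.8 CPM. For EUG1 the values were 65.7, 67.9 and 53.25 CPM against 53.5, 56.5 and 59.4 CPM. TIR4 came close to passing the interaction, with 0.98 and an adjusted p of 0.0508 (edgeR). ULI1, which did not pass within the mutant, had the largest interaction of the 34, at -3.07 (edgeR, adjusted p = 0.0185), with 20.4, 20.7 and 10.5 CPM in WTE and 8.68, 9.75 and 11.1 CPM in WTC. Here too WTE was slightly below WTC in the replicates numbered 3, unlike in the others. Others that passed as an interaction but not within the mutant included OST2, of the oligosaccharyltransferase, at -1.45, NUS1, of dolichol synthesis, at -1.10, and PMT3, an O-mannosyltransferase, at -0.93. These 3 were picked for mention after their values were seen, and their edgeR adjusted p-values were 0.0222, 0.0263 and 0.0226. The count of 34 depended on single libraries as well, with 11 left without WTE replicate 1, WTE replicate 2 or WTC replicate 2, 12 without WTC replicate 1, 15 without LGC replicate 1, and 20 and 19 without LGE replicate 1 or 2. It was 82 without LGC replicate 3, 140 without WTC replicate 3, 157 without LGE replicate 3 and 265 without WTE replicate 3. With replicates 1 and 2 of each group summed 0 genes passed (217 at an unadjusted p under 0.05).

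**Figure D5:**
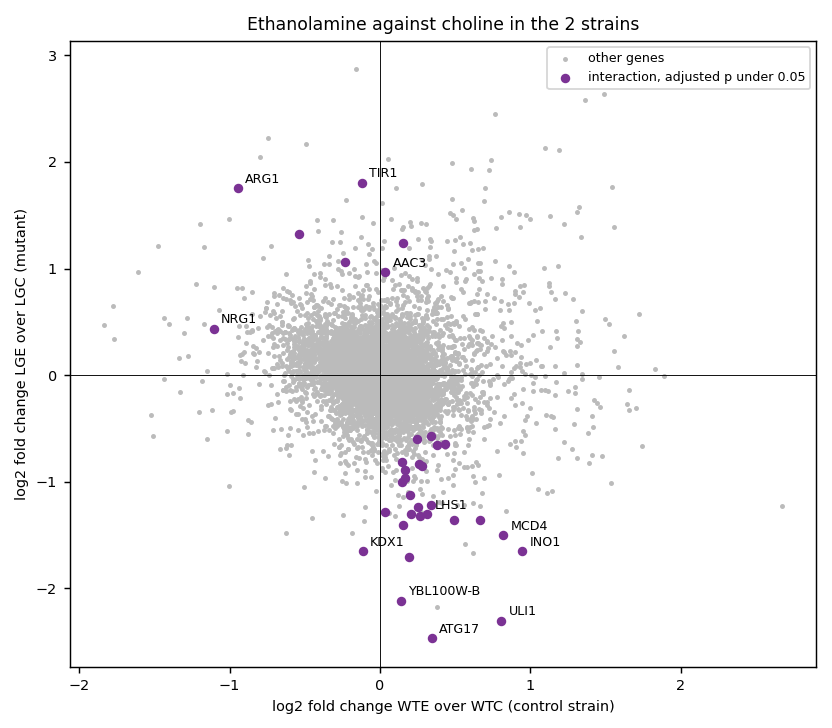
Log2 fold change of ethanolamine over choline in the mutant (vertical axis) against the control strain (horizontal axis), 1 point per gene, with the 34 genes whose difference between strains had an adjusted p under 0.05 in purple. Of these, 27 lie on the side of a more negative mutant value and 7, TIR1 and ARG1 among them, on the other side.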

How the data were processed

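Per the labels' protocols, RNA was extracted with hot phenol, and libraries were made and sequenced on an Illumina instrument by a company. The authors deposited 7 tables, each for 2 groups, with whole-number read counts per gene, which alone entered the tests. Per the file headers and values, the deposited tables also hold a signal (counts divided by a size factor per library and table), FPKM, and the authors' own p-values and log2 fold changes; none was used. The submitters' processing notes name STAR 2.5, HTSeq 0.6.1, DESeq2 and CASAVA without a role. Genome build, annotation and strandedness are not given in the sources used here.

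The counts of LGE and LGC were joined by gene identifier; 59 genes only in the LGE table and 93 only in the LGC table, with at most 34 and 17 counts, were left out. Counts of a library were identical in all tables (0 differences), and 0 columns of per-sample values were unmapped. Symbols came from the R64 gene table for 5924 identifiers, and 5915 of these lie at identical positions there. Promoter sequence was read from R64 at the positions of that gene table. At the deposited coordinates, 6372 of 6376 protein-coding genes run from ATG to a stop codon in R64.

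Fits used edgeR 4.0.16 in R 4.3.3 with TMM normalization, filterByExpr, the quasi-likelihood F test and Benjamini-Hochberg adjustment at 0.05, on 6 libraries, or 12 for the interaction. SEs and 95% intervals come from that fit. CPM levels were scaled with TMM factors over 24 libraries. The tests were tried on simulated counts. Named genes were the called ones whose libraries did not overlap and averaged 50 or more counts, up to 12 each way and filled to 24 by the smallest p, all members of the 3 phospholipid lists, the member with the smallest p of each other list, and the 4 smallest interaction p-values; further list members and interaction genes were named after their values were seen. Members and the 33 gene lists were chosen with earlier results of these data known. DESeq2 1.42.0 served as an alternative test; the other alternatives are given with their effect in the closing section.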

Additional observations from a re-analysis of the deposited data

Results flagged for a closer look

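The ethanolamine-over-choline difference itself differed between the mutant and the control strain for 34 genes, by edgeR's quasi-likelihood F test of the interaction with Benjamini-Hochberg adjustment, and the genes named here are given with the interaction on the log2 scale (mutant minus control). The interaction was negative, that is the ethanolamine-over-choline difference was lower in the mutant than in the control strain, for ATG17 (-2.77), INO1 (-2.56), MCD4 (-2.29), YBL100W-B (-2.22), ADD37 (-1.996) and YDR034C-D (-1.86). It was also negative for LHS1 (-1.59), YDR261W-B (-1.56), SPP382 (-1.53), SIL1 (-1.52), KDX1 (-1.50) and YIL108W (-1.47). Smaller negative values passed for BNA2 (-1.28), YNR065C (-1.28), EUG1 (-1.11), PEX27 (-1.06) and KTR2 (-1.02). The interaction was positive for ARG1 (2.72), TIR1 (1.96), snR63 (1.12) and AAC3 (0.96). Of these 21 genes, INO1, PEX27 and AAC3 did not pass the comparison within the mutant. PEX27, a gene of peroxisome division, was at 40.7, 39.3 and 39.6 CPM in LGE and 70.8, 75.5 and 67.1 CPM in LGC.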

How the results depend on the processing

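For the 22 genes called in LGE vs LGC, DESeq2's size factors, no filter, a minimum of 10 counts per library and leaving out the 10 most abundant genes each gave 22, upper-quartile normalization 18 and a 2-fold minimum 21. DESeq2's Wald test gave 292 and a fit of all 24 libraries 315. An adjusted p under 0.01 gave 0, replicates 1 and 2 summed gave 0 (206 at an unadjusted p under 0.05, and an adjusted p of 0.9 for all 22 genes), and the replicate block gave 0 (469 at an unadjusted p under 0.05). Replicates 1 and 2 only gave 3617. Leaving out each library in turn gave 0 to 90. For the 34 interaction genes the counts were 59 (upper-quartile), 268 (DESeq2's Wald test), 173 (all 24 libraries), 5 (replicate block), 0 (replicates 1 and 2 summed; 217 at an unadjusted p under 0.05), 3695 (replicates 1 and 2 only) and 12 (adjusted p under 0.01), and 11 to 265 with each library left out. The causes were not tested.

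The replicate numbers did not pair the libraries: deviations of same-numbered LGE and LGC libraries correlated at -0.36, -0.40 and -0.52, and no library correlated best with its own number. No called gene changed sign (0 of 26 reversals, in 11 of 98 named genes). That carries little weight, since the libraries of the groups were apart for every called gene. With replicates 1 and 2 only, the log2 difference was -0.0196 for HNM1, 0.00457 for INO4, 0.0118 for NTH1, 0.19 for PSD1, -0.27 for INM1, 0.18 for INM2, -0.26 for EKI1 and 0.13 for ECT1. With 1 library left out at a time, values ran across 0 from -0.495 to 0.0351 for PSD1, -0.283 to 0.0581 for GIT1, -0.0698 to 0.238 for INM1, -0.195 to 0.0756 for INM2, -0.143 to 0.230 for EKI1, -0.107 to 0.0792 for ECT1, -0.269 to 0.204 for OPI1 and -0.0669 to 0.125 for IRE1, and with replicates 1 and 2 summed IRE1 was -0.0750. Of 352 values for called genes 150 lost the call, and of 1216 for uncalled genes 129 gained it. Total counts ran from 17606509 to 20776303; what limits the number of calls was not tested.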

Other observations

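Of the 33 gene lists, 4 held a called gene. In the other 29 the median log2 difference ran from -0.47 to 0.52. Cytosolic heat-shock chaperone genes had 0 called members among 26 tested with edgeR. At an unadjusted edgeR p under 0.05 there were 6, beside 784 of 6208 genes in all. DESeq2's Wald test called 3 of the list, beside 292 of 6567 genes in all. Of the 26, 9 had no overlap with LGE lower and 0 with LGE higher, beside 12.6% and 10.8% of all tested genes. HSP82, the inducible Hsp90 gene, was at 2400, 2435 and 2448 CPM in LGE and at 3250, 3157 and 3108 CPM in LGC. The groups were apart and tight, yet the log2 difference was small, at -0.38 (95% interval -0.68 to -0.09; edgeR, adjusted p = 0.276). The cochaperone gene STI1 was at 1498, 1483 and 1312 CPM against 2105, 2089 and 2383 CPM, with -0.61 (-0.95 to -0.28; edgeR, adjusted p = 0.168). The median log2 difference of the list was -0.22 in the mutant and 0.98 in the control strain. In the control strain that value rests on replicates 1 and 2: the list's level relative to the LGD mean was 1.28, 1.30 and -0.06 in WTE and -1.32, -1.31 and 0.99 in WTC.

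Iron and sphingolipid genes had 0 called members with edgeR (7 and 9 at an unadjusted p under 0.05, and 0 and 2 called by DESeq2's Wald test), and 13 of 20 and 17 of 24 had log2 differences above 0. Over all tested genes 784 of 6208 had an unadjusted edgeR p under 0.05, and DESeq2's Wald test called 292 of 6567. Of 20 iron regulon genes 10 had no overlap with LGE higher and 1 with LGE lower, and the median log2 difference was 0.32. FRE2, a metal reductase gene, was at 48.4, 55.0 and 43.3 CPM in LGE and 34.5, 29.1 and 36.3 CPM in LGC, with 0.56 (95% interval 0.19 to 0.92). Of 24 ceramide and sphingolipid genes 8 had no overlap with LGE higher and 1 with LGE lower. ORM1, a regulator of sphingolipid synthesis, had a log2 difference of 0.63 (0.30 to 0.96, edgeR, adjusted p = 0.157). In the 39 nuclear genes of oxidative phosphorylation the median was 0.01, with 0 called by edgeR, 0 at an unadjusted p under 0.05 and 0 by DESeq2's Wald test, 1 without overlap higher and 3 lower. The share of all tested genes with no overlap was 10.8% with LGE higher, 12.6% with LGE lower and 23.4% in either direction.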
